A study of Oryza sativa Japonica Group with 17 samples.

Results

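The regions described here carried an i-motif (iM) peak in unaltered rice DNA at pH 7.0, kept one in hypermethylated DNA at pH 5.5, pH 7.0 or both, and had none in demethylated DNA at either pH. They were chosen from the deposited iM-IP-seq peak lists. A peak called against input that overlapped a peak called against IgG of the same condition by at least 1 bp was taken as a common peak. The common peaks of the 5 conditions were joined wherever they overlapped by at least 1 bp, which gave 113086 regions in all, and 49301 of these held a common peak of unaltered DNA (CK regions). Of the CK regions, 1529 met the rule. "Lost" and "kept" stand below for the absence and presence of a common peak, and the choice rests on these same lists, so the values of the lists are descriptions and no test was made on them.

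The i-motif is a folded structure of C-rich DNA strands, in which pairs of cytosines, 1 of them carrying an extra proton, are stacked between each other. Since the extra proton is needed, i-motifs form most readily in acidic buffer, and fewer sequences fold at neutral pH. Cytosines are also the bases that plants methylate, in CG, CHG and CHH contexts, so the methyl group sits on the base that builds the fold.

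iM-IP-seq sequences DNA fragments that an i-motif antibody, iMab, pulls down from sheared, denatured and refolded genomic DNA. The demethylated DNA came from seedlings of Oryza sativa L. Japonica cultivar Nipponbare that had been treated from day 5 for 5 days with zebularine at 80 µM, a drug that blocks DNA methyltransferases, and it was assayed at pH 5.5 and pH 7.0. The hypermethylated DNA was purified genomic DNA of the same cultivar treated in the tube with M.CviPI, a viral enzyme that methylates cytosine after guanine, and it was assayed at the same 2 pH values. CK was untreated genomic DNA assayed at pH 7.0. The growth protocol gives 2 weeks as the seedling age at harvest, and the treatment protocol describes control seedlings given the solvent DMSO alone. CK was labelled as untreated, and the labels used here do not say whether it came from those DMSO seedlings. M.CviPI acts on naked DNA and zebularine on living seedlings, so the enzyme treatment and the drug treatment differ in more than the methylation they leave. Each condition had 1 IgG library and 2 iMab libraries. The authors pooled the iMab libraries before peak calling, so there is no error between replicates for any value below. The 2 input libraries were of hypermethylated and of demethylated DNA, and their labels give no pH. None of the libraries was labelled as a CK input, so the source of the input used for the CK list is not known here. Intervals cover counting error only.

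The lists differed in depth. The background coverage, the mean number of fragments over a position after the scaling that the peak caller applies to the larger library, was 7.99 in the demethylated pH 5.5 list called against input and 4.78 in that called against IgG, 14.4 at pH 7.0 for either control, and for hypermethylated DNA 9.35 at pH 5.5 and 11.4 at pH 7.0 for either control. In CK it was 6.005 in the list called against input and 11.2 in that called against IgG. The lowest fold that could be called over background was therefore 1.89 and 2.35 in the demethylated pH 5.5 lists, against input and IgG. It was 1.68 in the demethylated pH 7.0 lists and 2.24 in the CK list called against input. For hypermethylated DNA it was 1.835 at pH 5.5 and 1.771 at pH 7.0 for either control.

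The 1529 regions were 3.1% of the CK regions. A smaller share of CK regions lost the peak in demethylated DNA at both pH values (2444 regions, 4.96%) than at pH 5.5 (12857 regions, 26.1%) or at pH 7.0 (5513 regions, 11.2%) taken alone. Hypermethylated DNA kept a peak at 62.6% of those 2444 regions, and the other 915 (1.86% of the CK regions) had a common peak in no treated condition. In hypermethylated DNA, 2768 CK regions (5.61%) lost the peak at both pH values. Demethylated DNA kept a peak at 66.9% of these, and the resulting 1853 regions (3.76% of the CK regions) are called the opposite set below. A further comparison is given by the 30100 CK regions kept in all 5 conditions.

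In hypermethylated DNA the peak was most often kept at pH 5.5. Of the 1529 regions, 771 (50.4%, 95% Wilson interval 47.9 to 52.9) were kept at pH 5.5 only, 277 (18.1%, 16.3 to 20.1) at pH 7.0 only and 481 (31.5%, 29.2 to 33.8) at both. Of all 46533 CK regions with a hypermethylated peak, 9.26% were kept at pH 5.5 only, 6.75% at pH 7.0 only and 84.0% at both. The opposite set was also kept mostly at 1 pH, with 713 regions (38.5%) at pH 5.5 only, 676 (36.5%) at pH 7.0 only and 464 at both. Of all 46857 CK regions with a demethylated peak, 6.55% were kept at pH 5.5 only, 22.2% at pH 7.0 only and 71.2% at both. Counted list by list, the hypermethylated pH 5.5 lists had a peak at 84.6% of the 1529 regions against input and 83.8% against IgG, where 90.3% and 89.9% of all CK regions had one. The hypermethylated pH 7.0 lists had a peak at 53.9% against input and 52.8% against IgG, where 87.6% of all CK regions had one in either list.

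A region without a common peak may still carry a peak against 1 of the 2 controls. No peak in any of the 4 demethylated lists was found at 544 of the 1529 regions (35.6%, 33.2 to 38.0), against 2.02% (995) of all CK regions. The rule itself sets this difference, since it admits only regions without a demethylated common peak. All 995 lie among the 2444 CK regions without a demethylated common peak. The other 985 regions (64.4%) had a demethylated peak in at least 1 list, and 286 of the 1529 (18.7%) had one at both pH values. At pH 5.5, 631 regions (41.3%) had a peak against input only, 12 (0.785%) against IgG only and 886 (57.9%) had none. At pH 7.0, 293 regions (19.2%) had a peak against input only, 335 (21.9%) against IgG only and 901 (58.9%) had none. For comparison, 87.3% and 74% of all CK regions had a peak in the demethylated pH 5.5 lists against input and IgG, and 91.6% and 90.7% had one in those of pH 7.0. The rule lowers these shares in the set by construction. For 64.4% of the regions, then, "lost" at 1 or both pH values means that a peak passed against 1 control and not against the other.

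**Figure D1:**
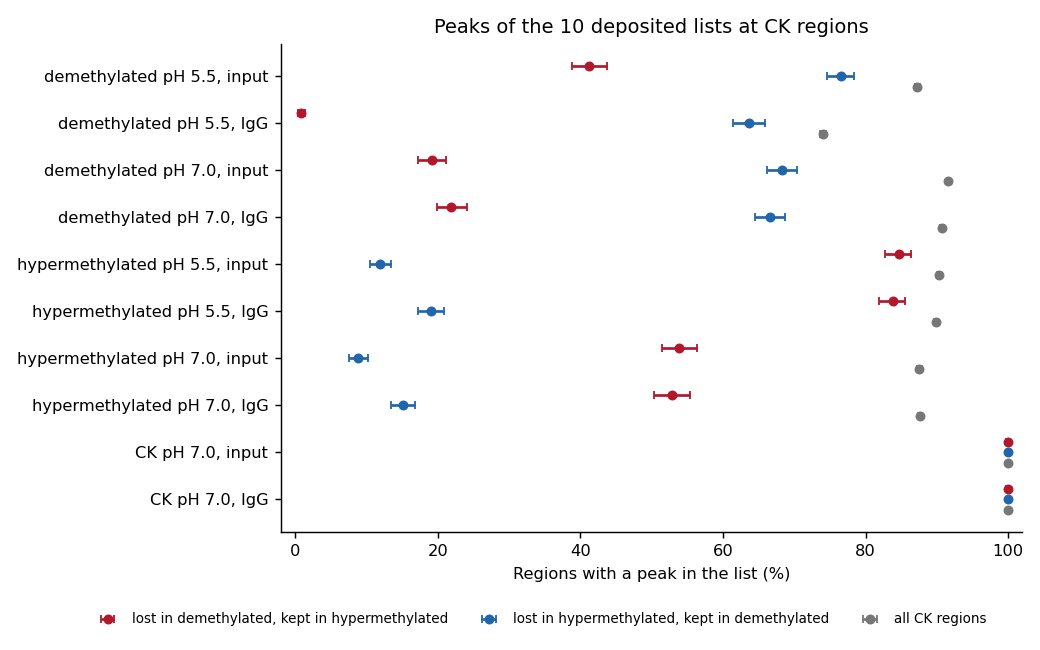
Share of regions (%, x axis) with a peak in each of the 10 lists, given by condition and control, for the 1529 regions lost in demethylated and kept in hypermethylated DNA (red), the 1853 regions of the opposite set (blue) and all 49301 CK regions (grey). Points are shares and bars are 95% Wilson intervals; 41.3% of the red regions have a peak in the demethylated pH 5.5 list against input and 0.785% in that against IgG.

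The regions kept at pH 5.5 only were most often without any demethylated peak. Of these, 333 of 771 (43.2%, 39.7 to 46.7) had no peak in the 4 lists, against 85 of 277 (30.7%, 25.6 to 36.4) of those kept at pH 7.0 only and 126 of 481 (26.2%, 22.5 to 30.3) of those kept at both. The opposite set was more often without any peak in the lists that define its loss. No hypermethylated peak in any of 4 lists was found at 1010 of the 1853 regions (54.5%, 52.2 to 56.8). The rule raises this share by construction, since it admits only regions without a hypermethylated common peak. Over all CK regions, too, such absence was more frequent in the hypermethylated lists (1617 regions, 3.28%) than in the demethylated ones (995 regions, 2.02%). What the lists themselves add to the difference between the sets was not tested.

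Of the 4 demethylated lists, only the pH 5.5 list against IgG was shallower than the CK list called against the same control. With the pileup and control level of each CK summit scaled down to its coverage, 1492 of 1529 summits (97.6%) still reached the lowest −log10 p-value of that list, against 99.1% of all CK regions. At the 631 regions with a demethylated pH 5.5 peak against input only, the demethylated pileup was scaled to the same list. It would have reached the lowest −log10 p-value over a control at background at 621 of them (98.4%), which is near the 97.4% (6408 of 6579) of all CK regions with such a peak. Neither scaling carries sampling error, and the second sets the unseen control at background, so most summits pass either way. Whether depth accounts for the lost peaks was not tested.

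The CK peaks of these regions were low and narrow. Their median fold over input was 3.22 (3.16 to 3.28), their median −log10 q-value was 5.86 (5.45 to 5.92) and their median width was 202 bp (199 to 204). All CK regions had a median fold of 3.60, a median −log10 q-value of 10.5 and a median width of 272 bp. The opposite set had nearly the same CK peaks, with a median fold of 3.25, a −log10 q-value of 5.92 and a width of 199 bp. Against IgG, the CK peaks of the lost and kept regions had a median fold of 3.67, against 5.39 in all CK regions and 4.04 in the opposite set.

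Fewer CK regions met the rule the stronger and wider the CK peak was. When the CK regions were ordered by −log10 q-value and cut into 10 groups of equal size, 371 of 4930 (7.53%) met the rule in the lowest group and 20 of 4931 (0.406%) in the highest. By width, 449 of 4930 (9.11%) met it in the narrowest group, where peaks were at most 184 bp wide, and 3 of 4931 (0.061%) in the widest, where they were at least 635 bp wide. By fold the share changed less, with 3.45% in the lowest group, 4.56% in the fourth and 0.507% in the highest. In the opposite set the share was likewise lowest in the highest group of each order, and by fold it was highest in the second group, at 5.42%.

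**Figure D2:**
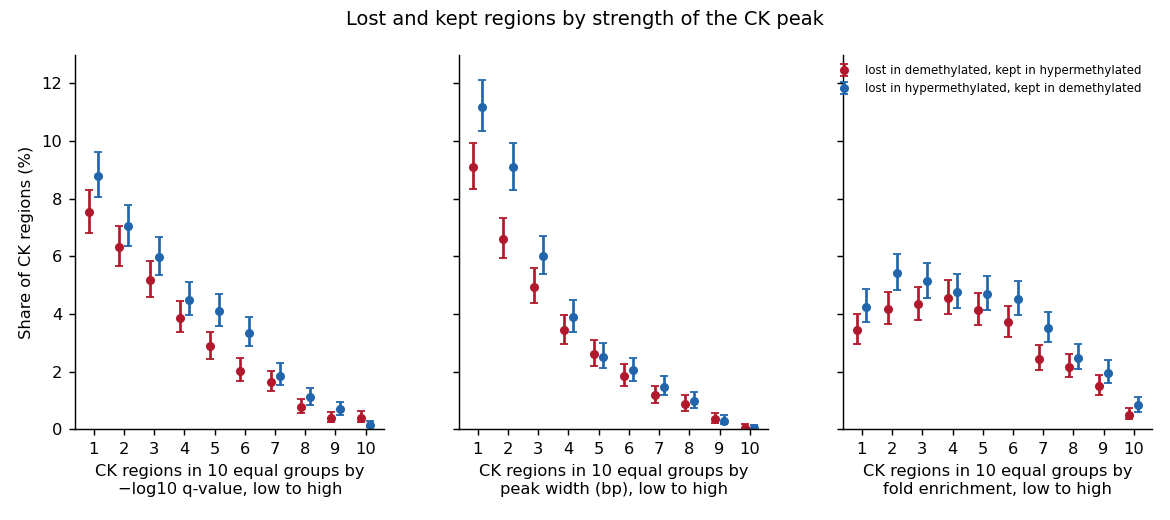
Share of CK regions (%, y axis) lost in demethylated and kept in hypermethylated DNA (red) and of the opposite set (blue), in 10 equal groups of the CK regions ordered by the −log10 q-value, the width or the fold of their CK peak against input (x axes, low to high). Bars are 95% Wilson intervals; by width the red share is 9.11% in the lowest group and 0.061% in the highest.

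Summit height was compared between conditions as the pileup divided by the background coverage of the list. Demethylated peaks called against 1 control only had a median summit of 3.05 times background at pH 7.0 in the list against input (293 peaks) and also in that against IgG (335 peaks), of 3.88 times at pH 5.5 against input (631 peaks) and of 4.13 times at pH 5.5 against IgG (12 peaks). In hypermethylated DNA the median over the common peaks was 4.17 times background at pH 5.5 (4.06 to 4.28, 1244 peaks) and 3.59 times at pH 7.0 (3.50 to 3.68, 747 peaks). The CK median was 4.48 (4.40 to 4.56, 1526 peaks). In all CK regions, the corresponding medians were 7.38 in demethylated DNA at pH 5.5 and 5.26 at pH 7.0 against input, 6.10 and 6.65 in hypermethylated DNA at pH 5.5 and pH 7.0, and 7.09 in CK. The summits of the regions that met the rule were thus below those of CK regions at large in CK and in hypermethylated DNA, where the peak was kept. They were also lower in demethylated DNA, but there the comparison is shaped by the rule. It admits only demethylated peaks called against 1 control, while the values of all CK regions include common peaks. Only regions with a peak in the list enter each median, and the regions without one have no value.

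**Figure D3:**
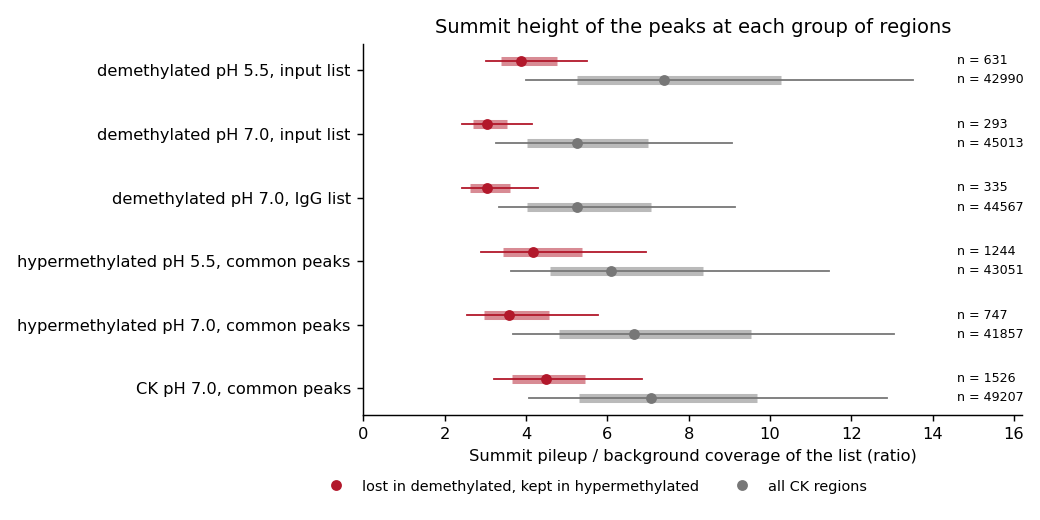
Summit pileup divided by the background coverage of the list (ratio, x axis) at regions lost in demethylated and kept in hypermethylated DNA (red) and at all CK regions (grey), for the peaks given at the left. Points are medians, thick bars run between the quartiles and thin lines between the 10% and 90% points; the red medians lie between 3.05 and 4.48, and each lies below the grey one of the same list.

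The hypermethylated folds at these regions were close to the CK folds. The median log2 ratio of the hypermethylated fold to the CK fold, both against input, was 0.10 at pH 5.5, with the hypermethylated fold higher at 723 of 1252 regions (57.7%), and −0.09 at pH 7.0, with the hypermethylated fold higher at 323 of 758 (42.6%). Over all CK regions the median log2 ratio was 0.44 at pH 5.5, with the hypermethylated fold higher at 74.5%, and 0.59 at pH 7.0, with the hypermethylated fold higher at 80.7%. The CK and hypermethylated peaks of a region were joined by overlap, so close summits are largely set by the rule. The hypermethylated summit lay within 50 bp of the CK summit at 1014 of 1252 regions (81.0%) at pH 5.5, with a median distance of 14 bp, and at 598 of 758 (78.9%) at pH 7.0, with a median distance of 16 bp. All CK regions had 72.7% and 73.2% within 50 bp at pH 5.5 and pH 7.0. Their CK peaks were wider, with a median of 272 bp against 202 bp. What the width adds to this difference was not tested.

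The control level under the CK peaks was lower than at CK regions at large. The local control level (lambda) of the CK list against input was more than 2 times background at 117 of 1526 regions (7.67%), against 38.8% of all CK regions and 54.2% of the regions kept in all 5 conditions. The median ratio of lambda to background was 1.17, against 1.76 in all CK regions. In the opposite set it was 1.19, with 7.02% of regions over 2 times background. More than 2 times background was thus most frequent at the regions kept in all 5 conditions. In the hypermethylated lists lambda was near background in both, with a median ratio of 1.10 at pH 5.5 and 1.05 at pH 7.0 in the lost and kept regions, and of 1.05 at either pH in all CK regions.

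The regions were spread over the 12 chromosomes of the MSU v7.0 genome, to which all positions below refer. Their share of the CK regions ran between 2.96% on chromosome 10 and 3.61% on chromosome 5 (3.08 to 4.22), and the interval of each chromosome held the genome-wide 3.1%. With each chromosome cut into 10 parts of equal length, the share ran between 2.71% and 3.52%. The median number of other CK regions within 50 kb was 13 around the 1529 regions and 13 around all CK regions. The median distance to the next region of the set was 80532 bp, and 177 regions (11.6%) had one within 10 kb. Most regions stood alone among their CK neighbours, which a share of 3.1% makes likely by itself. Of the runs of adjacent CK regions that met the rule, 1374 held 1 region, 74 held 2 and 2 held more, the longest holding 4. Runs of 2 or more held 10.1% of the regions, and 9.98% of the opposite set lay in such runs of its own. Whether the runs differ from a random arrangement was not tested.

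**Figure D4:**
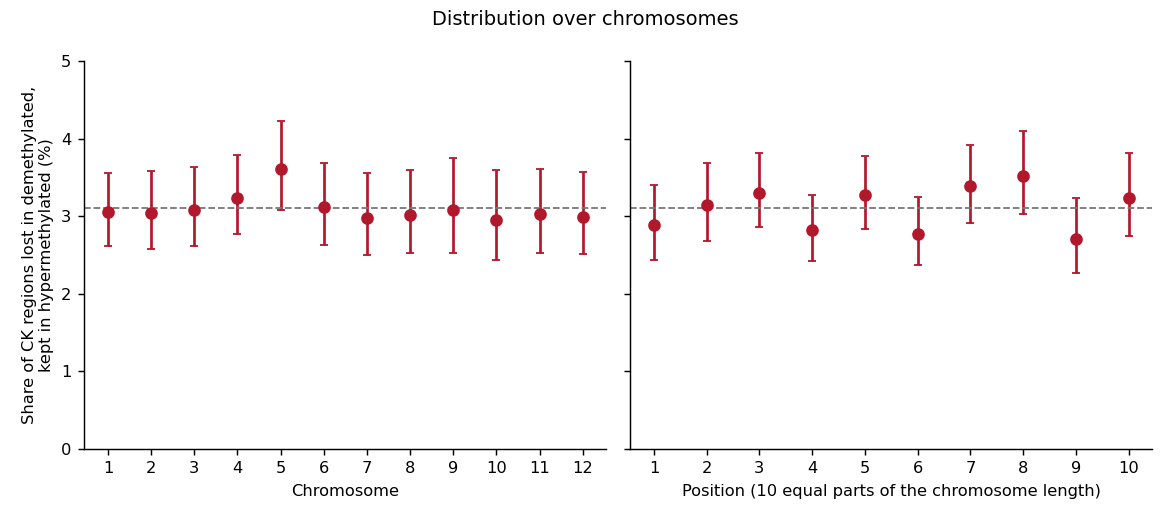
Share of CK regions (%, y axis) lost in demethylated and kept in hypermethylated DNA, by chromosome (left) and by position in 10 equal parts of the chromosome length (right). Bars are 95% Wilson intervals and the dashed line is the share over the genome, 3.1%; the shares run between 2.96% and 3.61% by chromosome.

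The median distance from a region to the nearest demethylated common peak of either pH was 1129 bp, and 344 regions (22.5%) had one within 500 bp. In the opposite set the median distance to the nearest common peak of its lost conditions was 1432 bp, and 320 regions (17.3%) had one within 500 bp. Whether these distances differ from those of other positions was not tested. At the limit of the rule, a region on chromosome 4 (3869768 to 3869991) was separated by 1 bp from a demethylated common peak, and one on chromosome 5 (11929646 to 11929955) by 3 bp. Just outside the rule, regions on chromosome 5 (5433423 to 5433844) and chromosome 11 (22496911 to 22497292) counted as kept because a demethylated pH 5.5 common peak overlapped their CK peak by 13 bp. No kept CK region had an overlap of 1 to 10 bp, and 32 kept CK regions were joined to a demethylated peak only through another peak.

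In the 5 regions with the highest CK scores, the control was far above background in each list where it could be solved. The 5 highest −log10 q-values against input were those of region A on chromosome 6 (23576495 to 23576845, 549), region B on chromosome 4 (9105038 to 9105484, 389), region C on chromosome 2 (14258873 to 14259354, 265), region D on chromosome 2 (14289165 to 14289596, 223) and region E on chromosome 8 (9274505 to 9275309, 212). All 5 were kept in hypermethylated DNA at both pH values. In region A the single demethylated peak, at pH 7.0 against input, had a fold of 1.92, with a pileup of 425 fragments over a control of 221. The hypermethylated folds of region A were 11.2 and 8.49 at pH 5.5 and 5.18 and 3.42 at pH 7.0, against input and IgG, and its CK folds were 7.33 and 4.88.

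Region D was the only one of the 5 with no demethylated peak in any list. Its hypermethylated folds were 5.56 and 3.89 at pH 5.5 and 3.36 and 2.30 at pH 7.0, against input and IgG, and its CK folds were 2.91 and 2.11. Its CK summit against input held a scaled pileup of 1258 fragments over a control of 432, which is 72.0 times background. In region E the demethylated peak, at pH 7.0 against IgG, had a fold of 1.55 with 625 fragments over a control of 403, and the CK control was 55.3 times background. Such regions were few. The CK control was more than 10 times background at 10 regions, and at a further 3 (regions A, B and C) the score was too high for the pileup and control to be solved. All of these 13 were kept in hypermethylated DNA at both pH values. What sequence lies there was not analysed here.

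Region B also had the highest CK fold among the regions kept at both pH values. The regions with the highest CK fold of the other kinds of keeping had CK pileups far below those of regions D and E. Region F on chromosome 7 (23435321 to 23435567) was the highest of those kept at pH 7.0 only. It had a demethylated pH 5.5 peak against input with a fold of 4.67, hypermethylated pH 7.0 folds of 4.27 and 4.77, and CK folds of 7.54 and 4.99, against input and IgG. Its demethylated pileup was 41 fragments over a control of 7.99, and its CK pileup 55.8 over 6.52. Region G on chromosome 9 (22358083 to 22358392) was the highest of those kept at pH 5.5 only and had the highest CK fold against input of all 1529, 8.32, with a CK fold of 6.84 against IgG. Its hypermethylated pH 5.5 folds were 13.6 and 7.42, its hypermethylated pH 7.0 peak passed against input only with a fold of 9.26, and its demethylated pH 5.5 peak passed against input only with a fold of 3.78. In pileup, region G had 33 fragments over 7.99 in demethylated DNA at pH 5.5, 140 over 9.35 in hypermethylated DNA at pH 5.5 and 98.8 over 11 in CK, all against input. The CK summit of region G was 16.5 times background, the highest among the regions kept at pH 5.5 only, whose median was 4.48. Against IgG, the CK control was 20 fragments in region F and 26 in region G, where background was 11.2.

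Among the regions with no demethylated peak in any list, the highest CK folds against input were those of regions H, I and J, all on chromosome 4. Region H (338418 to 338713) had hypermethylated folds of 4.34 and 3.16 at pH 5.5 and 4.93 and 4.14 at pH 7.0, and CK folds of 7.40 and 7.86, against input and IgG. Its nearest demethylated common peak was 3919 bp away. Region I (24692080 to 24692386) was kept at pH 7.0 with folds of 6.82 and 7.00, had a hypermethylated pH 5.5 peak of 4.23 against input only, and had CK folds of 6.39 and 7.03. Region J (9175056 to 9175417) had a CK fold of 6.33 against input and of 1.60 against IgG, where the control was 105 fragments. Its hypermethylated folds ran between 1.24 and 2.25 over controls of 157 to 242 fragments. The CK control was at or near background in both lists in regions H and I. In region J it was 2.24 times background against input, and against IgG its 105 fragments stood over a background of 11.2. The hypermethylated controls of region J stood over backgrounds of 9.35 at pH 5.5 and 11.4 at pH 7.0.

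Regions K, L and M ranked highest of all by the lowest of their CK, hypermethylated pH 5.5 and hypermethylated pH 7.0 folds against input. Region K on chromosome 3 (9237903 to 9238247) had hypermethylated folds of 7.25 at pH 5.5 and 5.80 at pH 7.0 against either control, and CK folds of 7.06 and 8.68. Its demethylated pH 7.0 peak, called against IgG only, had a fold of 4.12 with 63 fragments over a control of 14.5. Region L on chromosome 11 (22299934 to 22300219) had demethylated folds of 5.12 at pH 5.5 and 3.82 at pH 7.0, both against input only, hypermethylated folds between 5.55 and 5.60, and CK folds of 6.02 and 6.88. Region M on chromosome 10 (22445076 to 22445912) had a demethylated pH 7.0 peak against IgG only with a fold of 3.38, hypermethylated folds of 7.04 and 7.73 at pH 5.5 and 6.28 and 4.71 at pH 7.0, and CK folds of 5.26 and 6.36. All 3 therefore kept a demethylated peak against 1 control, and were lost by the requirement of both.

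The widest region, N on chromosome 11 (28818631 to 28820035, 1405 bp), took its width from a hypermethylated pH 7.0 peak of 1390 bp with a fold of 4.51. Its CK peak against input was 184 bp wide with a fold of 5.404, and its hypermethylated pH 5.5 peak was 186 bp wide with a fold of 2.80. A demethylated pH 5.5 peak of 826 bp, with a fold of 4.595 and called against input only, lay inside the region and outside the CK peak.

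**Figure D5:**
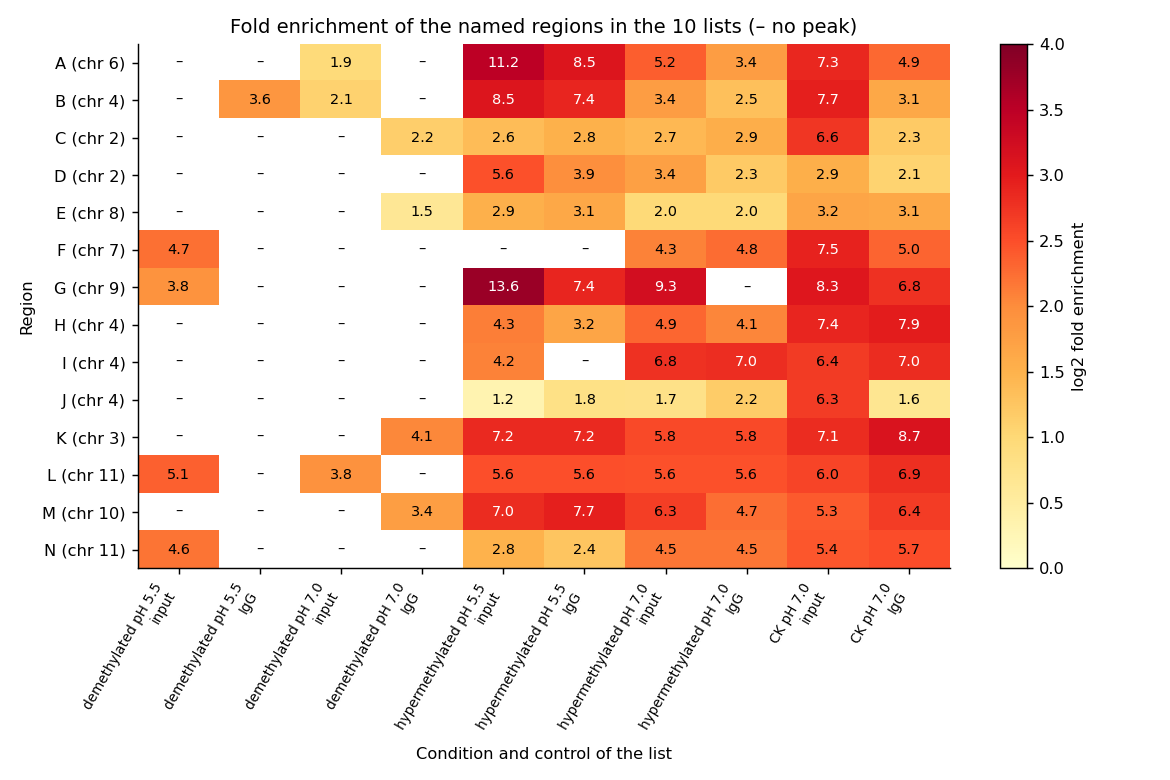
Fold enrichment over control (numbers in the cells; colour on a log2 scale) of the 14 named regions A to N (y axis) in the 10 lists (x axis, condition and control); a dash marks a list without a peak. No region has a peak in both demethylated lists of the same pH, and regions D, H, I and J have none in any of the 4.

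Of the 1529 regions, themselves 3.1% of the 49301 CK regions, 126 (8.24%, 6.97 to 9.73) had a peak in all 4 hypermethylated lists and in none of the 4 demethylated ones. These 126 were picked by presence and absence in the lists, so their contrast is set by the choice. They lay on all 12 chromosomes, with 7 to 13 on each. Their median folds against input were 3.48 in hypermethylated DNA at pH 5.5, 3.06 at pH 7.0 and 3.11 in CK, close to those of the whole set. The opposite set held 201 regions (10.8%) with the mirrored pattern. Besides region H, the following were chosen after the values had been seen, for the highest lowest fold. A region on chromosome 8 (13891042 to 13891323) had hypermethylated folds of 5.80 at pH 5.5 and 5.63 at pH 7.0 against either control, and CK folds of 5.03 and 5.31. Its pileups were 59, 69 and 34.2 fragments in the lists against input, over controls of 9.35, 11.4 and 6 fragments, and its nearest demethylated common peak was 1360 bp away. A region on chromosome 4 (25261866 to 25262116) had hypermethylated folds of 4.71 and 4.69 at pH 5.5 and 4.54 and 3.74 at pH 7.0, and CK folds of 4.99 and 5.07. A region on chromosome 5 (27670444 to 27670711) had hypermethylated folds of 6.04 and 6.38 at pH 5.5 and 4.87 and 5.15 at pH 7.0, and CK folds of 4.40 and 7.04.

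In windows of 100 kb, 1237 of the 3736 windows with a CK region held a region of the set, 1003 of them 1 and 234 of them 2 or more. The fullest window, on chromosome 11 (18800001 to 18900000), held 6 regions among 19 CK regions. Of these, 4 were kept at pH 5.5 only, 1 at pH 7.0 only and 1 at both, and 2 had no demethylated peak in any list. Their CK folds against input ran between 2.62 and 4.40. A window on chromosome 4 (9100001 to 9200000) held 5 among 24 CK regions, including regions B and J.

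The window on chromosome 10 from 10800001 to 10900000 held 5 among 32 CK regions, and it was looked at after its values had been seen. All 5 were kept in hypermethylated DNA at both pH values, and 4 had no demethylated peak in any list. The fifth region (10897422 to 10898749) had the highest hypermethylated fold of the whole set. Its demethylated pH 5.5 peak against input had a fold of 2.34, its hypermethylated folds were 8.69 at pH 5.5 and 77.1 at pH 7.0 against either control, and its CK folds were 4.78 against input and 6.51 against IgG. The demethylated summit held 103 fragments over a control of 43.4. In pileup it was 12.9 times background, above the 9.52 of hypermethylated DNA at pH 5.5 and the 7.00 of CK. The region at 10804608 to 10805223 had the next highest hypermethylated fold, with 22.9 at pH 7.0 and 4.64 at pH 5.5 against either control, and CK folds of 3.08 and 4.64. The 2 regions between 10817682 and 10846568 had hypermethylated pH 7.0 folds of 3.56 and 4.11 against input. The remaining one, at 10864439 to 10864672, had a CK control of 11.8 times background. The high pH 7.0 values thus belonged to 2 of the 5 regions.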

How the data were processed

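iMab IP, IgG and input libraries of rice genomic DNA were sequenced (17 libraries, of which 10 were iMab IPs, 5 IgG and 2 inputs). Per the labels and the study's methods, the authors aligned reads to MSU v7.0 with BWA, pooled the IP libraries of each condition, and ran MACS2 2.1.1 with a q-value cutoff of 0.05 once with input and once with IgG as control. The deposited peaks of the 10 lists carry a position, a fold (a ratio of pileup to local control), −log10 p-values and −log10 q-values, and a score that was used only to read the lists. Other deposited columns hold peak starts, ends and summit offsets. There were 0 columns of per-sample values left unused. The demethylated pH 7.0 IP labels name a hypermethylated list. The list named as demethylated, which the label of the demethylated input also names, was used.

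Pileup, control level and scaling were solved from fold and p-value, up to a −log10 p-value of 250, with at least 99.96% of such peaks solved in each list; this was tested on simulated data. Regions were built in Python 3.11.15 (numpy 2.4.6, pandas 2.3.3, scipy 1.17.1), with overlaps checked against bedtools 2.31.1. Intervals of shares are 95% Wilson intervals and those of medians are binomial order-statistic intervals. Both cover counting error only. No test was made, since each condition is 1 merged library and the rule used the same lists. Members, lists and alternatives were chosen with earlier results of these data known.

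Regions were named by rule: the 5 highest CK −log10 q-values against input, the highest CK fold of each kind of keeping, the 3 highest CK folds without a demethylated peak, the 3 highest lowest folds over CK and both hypermethylated conditions, the widest, and 2 on each side of the 1 bp limit. Other named regions were chosen after their values were seen. Alternatives were peaks against 1 control, a −log10 q-value of at least 5, a fold of at least 4, the top 20000 peaks, an overlap of 50% of the shorter peak, no peak in any lost list, no lost-condition peak within 500 bp, CK peaks taken one by one, and all lists scaled to one coverage. CK at pH 5.5, sequence content and gene annotation were not analysed here, and none of the 17 libraries was labelled as a CK input.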

Additional observations from a re-analysis of the deposited data

How the results depend on the processing

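The number of regions lost in demethylated and kept in hypermethylated DNA, 1529, was within 1.5 times under 7 of 10 alternatives (1025 to 1924). It was 931 with peaks against input only, 5748 with peaks against IgG only, and 544 with no demethylated peak allowed in any list. The opposite set, 1853 regions, became 7862 with peaks against IgG only, 1133 at a fold of 4 or more, and 1010 with no hypermethylated peak allowed in any list. The opposite set was the larger one except at a fold of 4 or more, where 1530 regions were lost in demethylated DNA. With all lists scaled to one coverage the sets held 1924 and 1936 regions. The share kept at both pH values, 31.5%, was 29.0% and 20.2% with peaks against input and against IgG only, 37.1% at a fold of 4 or more, 23.0% with the top 20000 peaks and 23.2% with no demethylated peak in any list, and 29.8% to 33.5% under the other 5. The share with no demethylated peak in any list, 35.6%, moved beyond its counting interval under 7 of 10 alternatives: 71.8% and 49.2% with peaks against input and against IgG only, 26.0% at a −log10 q-value of 5 or more, 3.27% at a fold of 4 or more, 0.723% with the top 20000 peaks, 24.3% with one coverage, and 100% by construction where no such peak was allowed. The median CK fold, 3.22, moved under 6 (3.12 to 4.96) and the median CK width, 202 bp, under 5 (206 to 268 bp). These counts do not always hold the same regions. Of the 1529, 1359 (88.9%) remained with one coverage, 847 (55.4%) with a −log10 q-value of at least 5, 768 (50.2%) with peaks against input only, 175 (11.4%) at a fold of 4 or more and 49 (3.20%) among the top 20000 peaks, and 3 remained under all 10. The cause of these changes was not tested.

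No paired analysis was possible because the peaks were called on merged replicates, and for the same reason no replicate was left out. What depth limits is the calling of low peaks: the lowest fold callable over background was 2.35 in the shallowest list and 1.68 in the deepest. Signal below these limits is not seen in the lists. The hypermethylated DNA and the demethylated DNA each came in 1 merged library per pH, so library and treatment cannot be told apart.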
